A study of Mus musculus with 10 samples.

Results

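The genes described here are 10 genes from protease inhibitor families of epithelia: 8 clade B serpins (Serpinb1a, Serpinb2, Serpinb5, Serpinb6a, Serpinb6b, Serpinb9, Serpinb11 and Serpinb12), A2ml1 and Slpi. They were taken by symbol from a table of 54151 genes, and they were picked with results of these same 10 libraries known. Which of those values did so is not stated, so the genes are treated as selected on their FPKM levels in all 10, and each value of theirs below is a description with no test. All 10 were among the 15817 genes that averaged at least 1 FPKM in at least 1 group. FPKM are sequenced fragments divided by exon length and by a library size that was not always the plain read count. The study grew epithelium of the mouse oviduct, taken by its methods from the isthmus (the segment next to the uterus), as organoids in Matrigel and sequenced 10 RNA libraries to ask what loss of Cdc42, a small GTPase, changes when multiciliated cells are induced. Every organoid carried Cdc42 alleles with loxP sites (Cdc42 f/f). PgrKO organoids came from PgrCre/+Cdc42 f/f mice, in which Cre is made from the progesterone receptor gene, and gave 2 libraries after differentiation (PgrKO_Diff) and 2 without it (PgrKO_Con). AdKO organoids were Cdc42 f/f organoids given Cre in culture by the adenovirus Ad5-CMV-Cre, with 1 library after differentiation (AdKO_Diff) and 1 without it (AdKO_Con). F/F organoids were Cdc42 f/f without Cre, again with 2 differentiated libraries (F/F_Diff) and 2 untreated ones (F/F_Con). Differentiation was 6 days of 10 nM estradiol (E2) and 1 μM of the Notch pathway inhibitor DBZ. The labels do not say which libraries came from separate mice or cultures, so the spread measured here may be technical. They give neither the age of the mice nor an empty virus control for AdKO.

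Serpins are proteins that catch a serine or cysteine protease by offering an exposed loop as bait, which springs shut once cut and locks the protease in place. Clade B serpins mostly lack a signal peptide and act inside the cell, where they guard it against its own and foreign proteases. A2ML1 belongs to the alpha-2-macroglobulin family, which cages proteases of many classes after they cut a bait region, and is known from stratified epithelium. SLPI is a small secreted protein with WAP domains that blocks neutrophil elastase and is made by mucosal epithelia, the reproductive tract among them.

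The promoters of A2ml1, Serpinb11, Serpinb12, Slpi and Serpinb9 are shown first, because both F/F_Diff libraries lay above every other library for the first 3 and below every other for Slpi and Serpinb9. Each is the 250 bases before a RefSeq start on GRCm38.p6, written along the gene's own strand. Capitals mark matches to the motifs searched, on both strands.
A2ml1: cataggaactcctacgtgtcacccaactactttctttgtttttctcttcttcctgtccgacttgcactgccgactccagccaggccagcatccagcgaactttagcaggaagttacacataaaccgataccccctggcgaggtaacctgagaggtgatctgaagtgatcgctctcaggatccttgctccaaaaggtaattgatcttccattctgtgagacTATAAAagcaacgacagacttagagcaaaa
Serpinb11: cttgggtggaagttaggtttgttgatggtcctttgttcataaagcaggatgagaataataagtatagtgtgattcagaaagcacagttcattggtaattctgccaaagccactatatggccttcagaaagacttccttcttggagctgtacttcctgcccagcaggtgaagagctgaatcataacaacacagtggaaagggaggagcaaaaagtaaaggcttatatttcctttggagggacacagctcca
Serpinb12: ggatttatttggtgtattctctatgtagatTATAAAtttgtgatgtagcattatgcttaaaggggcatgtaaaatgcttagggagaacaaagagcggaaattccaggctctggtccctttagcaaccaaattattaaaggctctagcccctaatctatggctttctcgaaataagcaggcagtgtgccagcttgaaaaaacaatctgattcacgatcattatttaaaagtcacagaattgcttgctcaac
Slpi: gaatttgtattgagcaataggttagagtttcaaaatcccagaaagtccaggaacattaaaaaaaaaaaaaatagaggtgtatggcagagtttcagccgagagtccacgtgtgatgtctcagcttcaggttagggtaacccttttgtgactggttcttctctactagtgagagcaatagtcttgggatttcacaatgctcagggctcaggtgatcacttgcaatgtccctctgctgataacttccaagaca
Serpinb9: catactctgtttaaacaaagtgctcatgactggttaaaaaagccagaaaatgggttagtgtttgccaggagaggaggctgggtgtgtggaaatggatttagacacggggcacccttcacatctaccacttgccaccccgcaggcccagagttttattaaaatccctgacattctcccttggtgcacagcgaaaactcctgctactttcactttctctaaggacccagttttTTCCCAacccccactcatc

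These windows lie at chr6:128581607-128581856 on the minus strand (A2ml1), chr1:107362064-107362313 on the plus strand (Serpinb11), chr1:106934199-106934448 on the plus strand (the first of 2 Serpinb12 starts), chr2:164356508-164356757 on the minus strand (Slpi) and chr13:33004291-33004540 on the plus strand (Serpinb9). The RefSeq starts of Serpinb11 and Serpinb6b do not open a transcript of the GENCODE M21 annotation. The capitals in the A2ml1 window are a TATA box (TATAAA) that begins 30 bases before the start. In Serpinb12 the same letters begin 220 bases before it. The capitals in Serpinb9 are an RBPJ site (TGGGAA, the DNA partner of Notch), 19 bases before the start and on the opposite strand. Serpinb11 and Slpi held no match. RefSeq had 12 windows for 9 of the 10 genes (2 each for Serpinb12, Serpinb2 and Serpinb6a, none for Serpinb1a), and those of 1 gene are not independent. The TATA box letters were found in 5 of these 12 windows, from 3 genes, and in 12.4% of all 32851 mouse windows. The 2 Serpinb2 windows overlap and share the same match, which begins 29 and 116 bases before their starts. In the second Serpinb12 window the match begins 201 bases before the start. The short RBPJ site was found in 2 of 12 and in 21.6% of all windows, and its longer form (GTGGGAA) in 0 of 12 and 5.42%. The palindromic estrogen response element (GGTCA, any 3 bases, then its reverse complement) was found in 0 of 12 and 0.0639%, and GGTCA alone in 2 of 12, that of Serpinb5 and the second of Serpinb12 (not printed), and 35.2%. GGTCA lies within the palindrome, and the short RBPJ site within the longer one. A match says only that these letters are present.

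The libraries held between 11745729 and 17331800 reads on genes, recovered from the FPKM values. The library size behind the FPKM was not always a plain read count. In PgrKO_Diff replicate 1 it was 15926604, below the 17331800 reads on genes. Cdc42 itself was listed at 113 and 134 FPKM in PgrKO_Diff, 104 and 105 in PgrKO_Con, 87.9 in AdKO_Diff, 81.6 in AdKO_Con, 125 and 126 in F/F_Diff, and 118 and 133 in F/F_Con, and a value over the whole gene does not check a deletion of part of it. The 8 epithelial markers were all above 1 FPKM in every group, with sums between 1893 and 3417 FPKM. Both second PgrKO libraries stood apart: 19 leukocyte and macrophage markers summed to 1673 FPKM in PgrKO_Diff replicate 2 and 1219 in PgrKO_Con replicate 2, against 75.3 to 380 in the other libraries. In these 2 libraries 15 of the 19 markers reached 1 FPKM, and Adgre1, a macrophage surface receptor, was at 116 and 29.1 FPKM. It was at 0 in both AdKO libraries and in F/F_Diff replicate 2. In the first PgrKO_Diff and PgrKO_Con libraries 10 and 12 of the 19 markers reached 1 FPKM, against 4 to 7 in AdKO and F/F libraries. For 8 endothelial markers the sums ran from 9.98 to 40.5 FPKM in PgrKO libraries. They ran from 0.546 to 2.95 in AdKO libraries and from 0.446 to 1.69 in F/F libraries. Sums of 11 fibroblast markers ran from 162 to 442 FPKM in PgrKO libraries, from 30.8 to 40.4 in AdKO libraries and from 19.3 to 68.3 in F/F libraries. Sums of 11 multiciliated cell markers were 246 and 256 FPKM in PgrKO_Diff, 272 to 522 in PgrKO_Con, 681 in AdKO_Diff, 472 in AdKO_Con, 2465 to 3288 in F/F_Diff and 382 to 629 in F/F_Con. In bulk RNA, fewer cells of a type and less RNA per cell cannot be told apart.

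A2ml1 was the highest of the 10 genes per length of transcript in 7 of the 10 libraries. The exceptions were both AdKO libraries and F/F_Con replicate 2. It made up between 12.3% (AdKO_Con) and 83.9% (F/F_Diff replicate 2) of the summed FPKM of the 10. In F/F_Diff replicate 2 it took 1.28% of all reads and ranked 11 among all genes, against 0.0176% and rank 2234 in AdKO_Con. Among the serpins Serpinb11 was highest in every library but the F/F_Con pair, in which Serpinb6b was. The lowest were Serpinb5, which stayed between 0.320 and 4.06 FPKM, and Serpinb2, which had 1 read in F/F_Diff replicate 2. Serpinb6a varied least, 1.74-fold between its lowest and highest library, and Serpinb2 most, 613-fold.

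**Figure D1:**
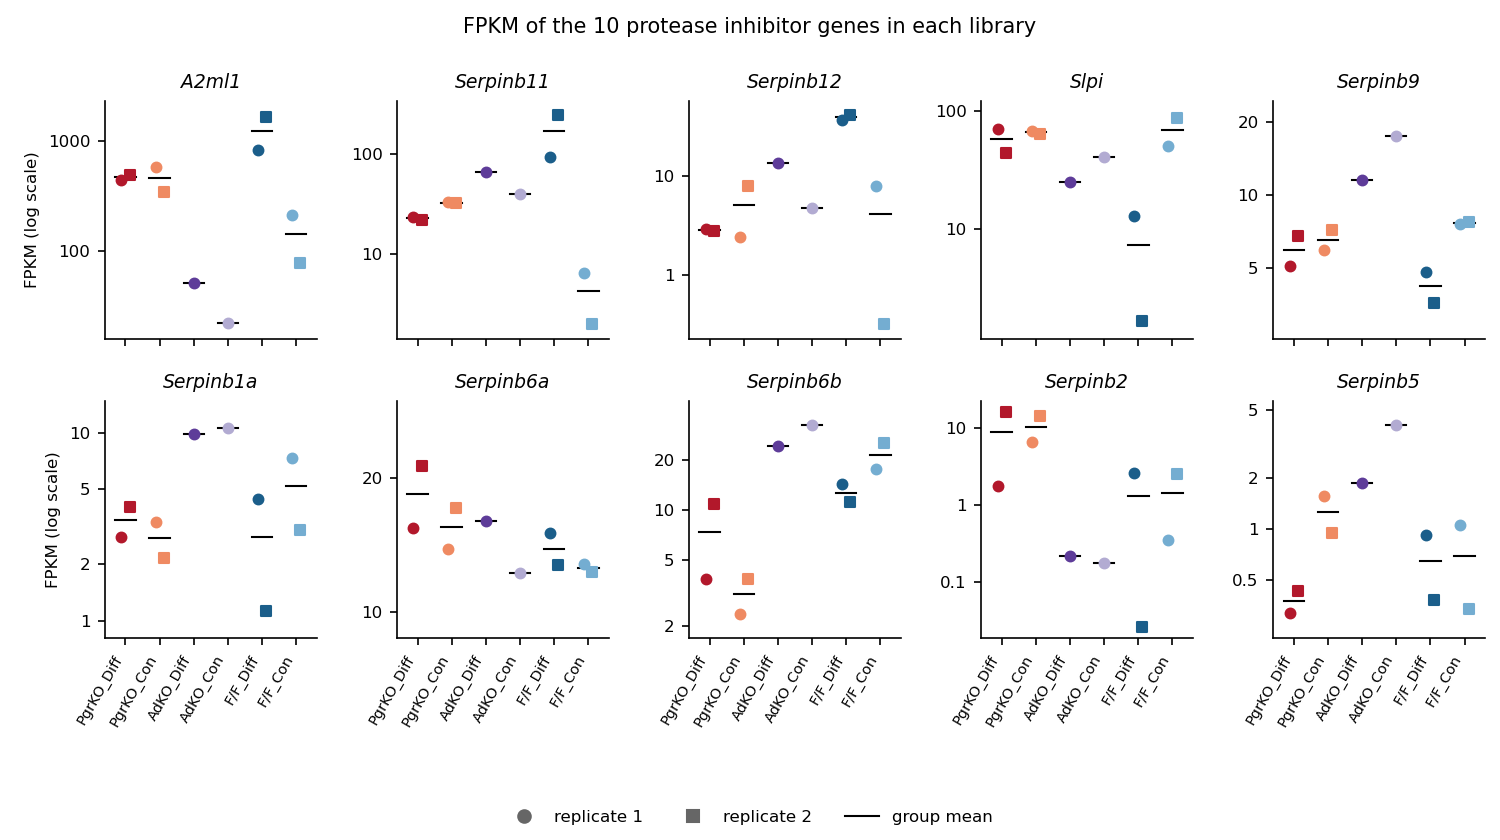
FPKM (log axis) of each of the 10 genes in each library, with groups on the horizontal axis, a point per library and a bar at the group mean. A2ml1, Serpinb11 and Serpinb12 were highest in F/F_Diff, where Slpi was lowest, and Serpinb6b was lowest by mean in PgrKO_Con.

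A2ml1 (chr6:128539821-128581608, mm10, minus strand) is the broad protease trap of the set. It was at 440 and 492 FPKM in PgrKO_Diff, 574 and 344 in PgrKO_Con, 51.4 in AdKO_Diff, 22.8 in AdKO_Con, 820 and 1639 in F/F_Diff and 212 and 78.2 in F/F_Con. Both F/F_Diff libraries lay above every other library, and the PgrKO groups overlapped each other between the F/F groups. F/F_Diff exceeded F/F_Con 8.93-fold (log2 fold change of FPKM + 1 of 3.16 ± 0.57, SE), while PgrKO_Diff differed from PgrKO_Con by 0.07 ± 0.57. PgrKO_Con stood above F/F_Con by 1.78 ± 0.57, and PgrKO_Diff below F/F_Diff by −1.32 ± 0.57, or −0.82 without F/F_Diff replicate 2. Sums of 5 oviduct secretory cell markers were 1941 and 3537 FPKM in PgrKO_Diff, 1106 and 2292 in PgrKO_Con, 346 in AdKO_Diff, 145 in AdKO_Con, 1393 and 3886 in F/F_Diff and 177 and 230 in F/F_Con. Like A2ml1 they were lowest in AdKO_Con and highest in F/F_Diff replicate 2, but they overlapped between PgrKO_Diff and F/F_Diff. Without Ovgp1, the oviductal glycoprotein and highest marker by median (such sums without 1 marker, here and below, were added after seeing the data), they stayed between 48.4 and 134 FPKM and were lowest in the F/F_Diff pair. Their part in the A2ml1 level was not tested.

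Serpinb11 (chr1:107361198-107380475, plus strand) encodes a serpin that inhibits trypsin-like proteases in the mouse. It was at 23.7 and 21.9 FPKM in PgrKO_Diff, 32.9 and 32.2 in PgrKO_Con, 65.5 in AdKO_Diff, 39.4 in AdKO_Con, 92.9 and 242 in F/F_Diff and 6.54 and 2.01 in F/F_Con. No 2 groups overlapped, and their order by mean was F/F_Diff, AdKO_Diff, AdKO_Con, PgrKO_Con, PgrKO_Diff and F/F_Con. F/F_Diff exceeded F/F_Con 31.7-fold (4.99 ± 0.56 on the log2 scale). In PgrKO organoids the treated libraries lay below the untreated ones, by −0.50 ± 0.56. Each SE rests on 1 spread shared by all groups, and the PgrKO replicates lay closer together than the F/F ones. The genotypes stood in opposite order in the 2 states, with PgrKO_Diff below F/F_Diff by −2.67 ± 0.56 and PgrKO_Con above F/F_Con by 2.82 ± 0.56.

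Serpinb12 (chr1:106934449-106957080, plus strand), likewise an inhibitor of trypsin-like proteases, was at 2.87 and 2.77 FPKM in PgrKO_Diff, 2.39 and 7.84 in PgrKO_Con, 13.5 in AdKO_Diff, 4.70 in AdKO_Con, 36.8 and 40.7 in F/F_Diff and 7.94 and 0.318 in F/F_Con. F/F_Diff stood above all other groups and AdKO_Diff second. The 4 lowest groups overlapped in a chain, PgrKO_Con with AdKO_Con, AdKO_Con with F/F_Con, and F/F_Con with PgrKO_Diff. The F/F difference was 3.53 ± 0.89 on the log2 scale and was 2.15 without F/F_Con replicate 2, which had 11 Serpinb12 reads. PgrKO_Diff lay below F/F_Diff by −3.38 ± 0.89, and by −3.45 to −3.31 with any 1 PgrKO or F/F library left out. The multiciliated marker sums given above were likewise highest in F/F_Diff and second highest in AdKO_Diff by group mean, and their part in the Serpinb12 levels was not tested.

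Slpi (chr2:164354070-164389095, minus strand) ran the other way in F/F organoids. It was at 71.1 and 44.2 FPKM in PgrKO_Diff, 68.2 and 64.2 in PgrKO_Con, 25.0 in AdKO_Diff, 41.1 in AdKO_Con, 13.1 and 1.67 in F/F_Diff and 50.8 and 87.2 in F/F_Con. The 3 highest groups by mean, F/F_Con, PgrKO_Con and PgrKO_Diff, overlapped, and F/F_Diff lay below every other group. F/F_Diff was 11.0-fold lower than F/F_Con (−3.46 ± 0.75 on the log2 scale, and −2.26 without F/F_Diff replicate 2). PgrKO_Diff differed from PgrKO_Con by −0.24 ± 0.75, and stood above F/F_Diff by 3.22 ± 0.75, or 2.02 without F/F_Diff replicate 2.

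Serpinb9 (chr13:33003250-33017957, plus strand), the granzyme B inhibitor that protects cells from cytotoxic granules, was at 5.07 and 6.79 FPKM in PgrKO_Diff, 5.91 and 7.16 in PgrKO_Con, 11.5 in AdKO_Diff, 17.6 in AdKO_Con, 4.81 and 3.56 in F/F_Diff and 7.61 and 7.74 in F/F_Con. Both AdKO libraries lay above all others, F/F_Diff lay below all others, and only PgrKO_Con and PgrKO_Diff overlapped among neighbours. The F/F difference was −0.75 ± 0.19 on the log2 scale. Across the 10 libraries its levels ran against those of A2ml1 (r = −0.95 on the log2 scale). These points share libraries and treatments.

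Serpinb6b and Serpinb6a are paralogs on chromosome 13 related to the human inhibitor of cathepsin G. Serpinb6b (chr13:32965209-32979067, plus strand) was at 3.86 and 10.9 FPKM in PgrKO_Diff, 2.36 and 3.86 in PgrKO_Con, 24.3 in AdKO_Diff, 32.7 in AdKO_Con, 14.4 and 11.1 in F/F_Diff and 17.8 and 25.4 in F/F_Con. All 4 PgrKO libraries lay below the other 6, and PgrKO_Con stood below F/F_Con by −2.46 ± 0.45 on the log2 scale. PgrKO_Diff stood below F/F_Diff by −0.85 ± 0.45, by −0.20 without PgrKO_Diff replicate 1 and by −1.49 without PgrKO_Diff replicate 2. F/F_Diff lay below F/F_Con without overlap, by −0.71 ± 0.45, while PgrKO_Diff differed from PgrKO_Con by 0.91 ± 0.45 and the 2 groups touched at 3.86 FPKM. Serpinb6a (chr13:33917918-34002794, minus strand) was at 15.4 and 21.3 FPKM in PgrKO_Diff, 13.9 and 17.2 in PgrKO_Con, 16.0 in AdKO_Diff, 12.2 in AdKO_Con, 15.1 and 12.7 in F/F_Diff and 12.8 and 12.3 in F/F_Con. Its 5 highest groups overlapped each with the next in order. Between treatments or genotypes of the PgrKO and F/F groups its differences were 0.13 to 0.37 on the log2 scale. Exons of genes on the opposite strand (Nqo2, Ripk1 and 1110046J04Rik) cover 29.3% of its exon bases, and since no source used here gives the strandedness of the counting, their reads cannot be told apart there.

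Serpinb1a (chr13:32842092-32851185, minus strand) inhibits the neutrophil proteases elastase, cathepsin G and proteinase 3. It was at 2.78 and 4.04 FPKM in PgrKO_Diff, 3.36 and 2.14 in PgrKO_Con, 9.79 in AdKO_Diff, 10.6 in AdKO_Con, 4.42 and 1.12 in F/F_Diff and 7.35 and 3.04 in F/F_Con. The AdKO libraries lay above the other 8, and each of the other groups overlapped the next in order. F/F_Diff differed from F/F_Con by −0.77 ± 0.54 on the log2 scale (−0.10 when F/F_Diff replicate 2 was left out, −1.45 when replicate 1 was), and PgrKO_Diff from PgrKO_Con by 0.24 ± 0.54.

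Serpinb2 (chr1:107511423-107535478, plus strand), plasminogen activator inhibitor 2, was at 1.74 and 16.1 FPKM in PgrKO_Diff, 6.61 and 14.1 in PgrKO_Con, 0.216 in AdKO_Diff, 0.176 in AdKO_Con, 2.59 and 0.0262 in F/F_Diff and 0.357 and 2.49 in F/F_Con. It was highest in both second PgrKO libraries, with 443 and 470 reads, and the replicates of each group with 2 libraries lay more than 2-fold apart. The leukocyte and macrophage marker sums were highest in the same 2 libraries and lowest in F/F_Diff replicate 2, in which Serpinb2 had 1 read. Cd14, which was at 52.4 FPKM or more in every library, made up much of these sums outside the second PgrKO libraries. Without it the sums were 1501 and 1099 FPKM in the second PgrKO_Diff and PgrKO_Con libraries, 121 and 173 in the first ones, where Serpinb2 was at 1.74 and 6.61 FPKM, and 22.4 to 38.9 in the others, lowest in AdKO_Diff. The part of such cells in the Serpinb2 level was not tested. PgrKO_Con stood above F/F_Con by 2.30 ± 1.05 on the log2 scale, or 1.81 ± 1.02 without both second PgrKO libraries. PgrKO_Diff stood above F/F_Diff by 1.83 ± 1.05, or 0.51 ± 1.02 without them. Serpinb10, which overlaps 12.4% of the exon bases of Serpinb2 on the same strand, reached at most 0.847 FPKM.

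**Figure D2:**
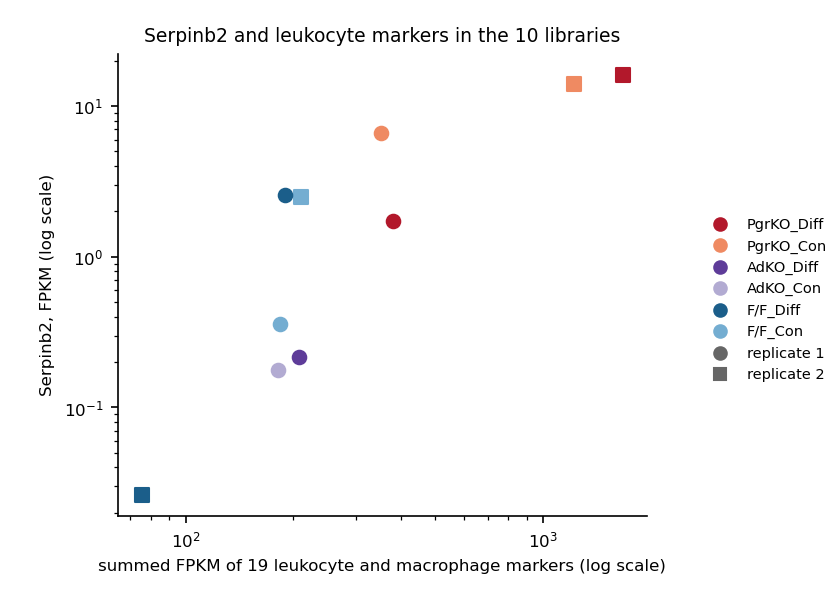
Serpinb2 FPKM against the summed FPKM of 19 leukocyte and macrophage markers, both on log axes, a point per library (color for the group, shape for the replicate). The second PgrKO libraries are highest on both axes, at 16.1 and 14.1 FPKM of Serpinb2.

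Serpinb5 (chr1:106861173-106883348, plus strand), maspin, a clade B serpin of epithelia that does not inhibit proteases, was low throughout. It was at 0.320 and 0.434 FPKM in PgrKO_Diff, 1.56 and 0.948 in PgrKO_Con, 1.87 in AdKO_Diff, 4.06 in AdKO_Con, 0.920 and 0.381 in F/F_Diff and 1.06 and 0.341 in F/F_Con. These values rest on 13 to 135 reads a library. AdKO_Con lay above all others, and PgrKO_Diff below PgrKO_Con by −0.70 ± 0.29 on the log2 scale. Sums of 26 markers of stratified and basal epithelium, in which maspin is known, were 540 FPKM in AdKO_Diff and 284 in AdKO_Con, 70.0 to 225 in PgrKO libraries and 42.8 to 77.1 in F/F libraries. Sprr1a, a cornified envelope protein, carried much of these sums. Without it they were 113 FPKM in AdKO_Diff and 146 in AdKO_Con. In PgrKO_Diff they were 18.0 and 23.4, in PgrKO_Con 56.2 and 49.8, and in F/F libraries 29.4 to 50.7. The basal cell genes Krt5 and Trp63 stayed at or below 0.461 FPKM in all 10. Krt15, a keratin of the same list, was at 54.1 FPKM in AdKO_Diff and 70.9 in AdKO_Con, against 2.12 to 10.6 in the other libraries. The part of these markers in the Serpinb5 level was not tested.

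Counted over the 10 genes, F/F_Diff and F/F_Con did not overlap for 6, of which A2ml1, Serpinb11 and Serpinb12 were higher after treatment and Slpi, Serpinb9 and Serpinb6b lower, against 32.2% of all genes higher and 34.4% lower. PgrKO_Diff and PgrKO_Con did not overlap for Serpinb11 and Serpinb5, both lower after treatment, against 16.4% of all genes lower and 18.9% higher. Since these levels chose the genes, nothing is read from the counts. The median of the 10 log2 fold changes was −0.10 in F/F and −0.18 in PgrKO organoids, against −0.02 and 0.01 over all genes.

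Between PgrKO_Diff and F/F_Diff 3 of the 10 lay above and 4 below without overlap, against 35.8% and 30.0% of all genes. Between PgrKO_Con and F/F_Con 4 lay above and 2 below (28.2% and 28.7% of all genes). When the response of F/F organoids was taken from that of PgrKO organoids, the difference was −5.48 ± 0.79 for Serpinb11, −4.05 ± 1.26 for Serpinb12, −3.09 ± 0.80 for A2ml1, 3.23 ± 1.07 for Slpi and 1.61 ± 0.63 for Serpinb6b on the log2 scale. These comparisons share libraries, so their values are not independent.

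**Figure D3:**
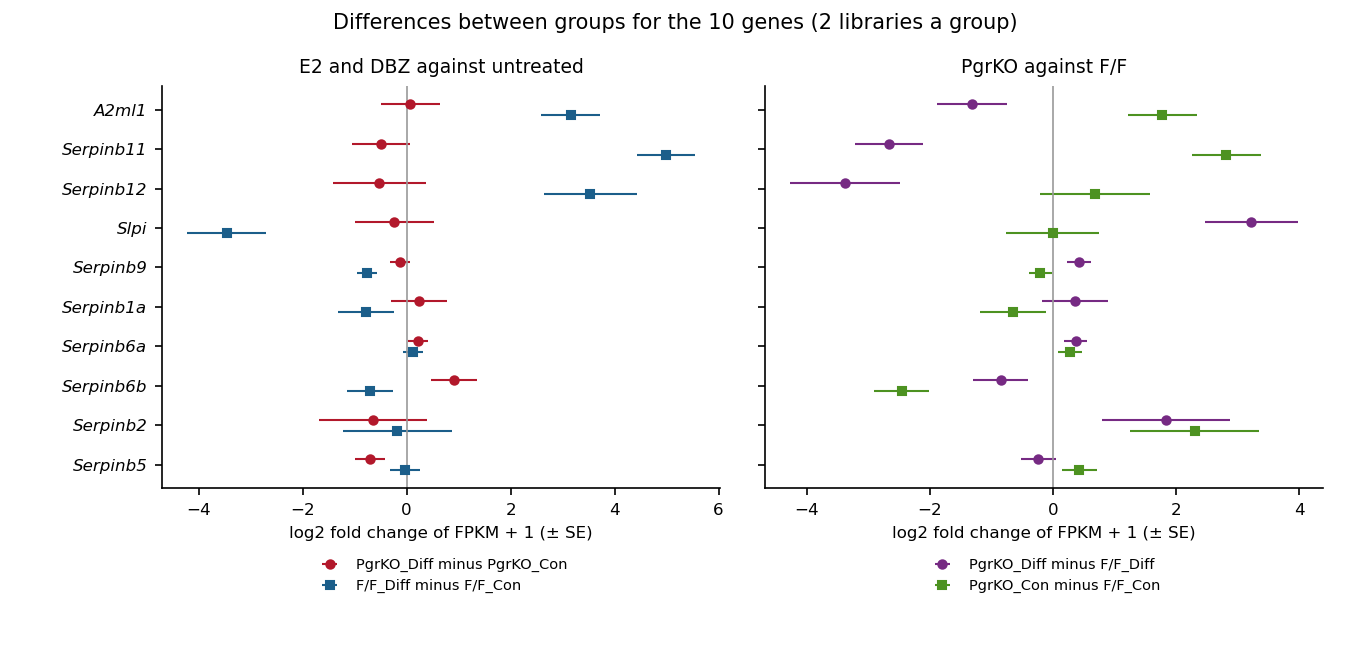
Log2 fold change of FPKM + 1 with its SE for the 10 genes. The left panel sets treated against untreated organoids (PgrKO circles, F/F squares), and the right panel sets PgrKO against F/F (differentiated circles, untreated squares). A2ml1, Serpinb11, Serpinb12 and Slpi lie 3.16 to 4.99 from 0 in F/F on the left and at most 0.52 in PgrKO.

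AdKO had 1 library a group and so no replicate check. AdKO_Diff lay above both F/F_Diff libraries for 6 of the 10 genes, below them for 3 and between them for Serpinb2, against 41.4% of all genes above and 40.0% below. The 3 below were A2ml1 (by −4.47 on the log2 scale), Serpinb12 (−1.45) and Serpinb11 (−1.18). Among those above were Slpi (2.09), Serpinb1a (1.67) and Serpinb9 (1.28). Beyond a log2 difference of 1 lay 3 of the 10 in each direction, against 5.34% of all genes above and 10.4% below. AdKO_Con lay above both F/F_Con libraries for 5 genes and below them for 4, against 38.9% and 38.1% of all genes. The difference was beyond 1 for Serpinb11 (3.08), Serpinb5 (1.61), Serpinb9 (1.10) and A2ml1 (−2.45), where 5.22% of all genes lay above and 4.90% below. Between AdKO_Diff and AdKO_Con, Serpinb12 (1.35) and A2ml1 (1.14) were beyond 1, with 2.11% of all genes above and 2.53% below, and Serpinb11 differed by 0.72 and Slpi by −0.69. A2ml1 stood lower in AdKO than in PgrKO libraries (51.4 and 22.8 against 344 to 574 FPKM), and Serpinb6b higher (24.3 and 32.7 against 2.36 to 10.9 FPKM).

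The 8 serpins sit in 2 gene clusters. The chromosome 1 cluster (chr1:106861173-107610484) holds 12 clade B genes, of which 5 averaged at least 1 FPKM in a group: Serpinb5, Serpinb12, Serpinb11, Serpinb2 and Serpinb8. Serpinb13, Serpinb3a, Serpinb3b and Serpinb3d, between Serpinb12 and Serpinb11, were at 0 FPKM in all 10 libraries, and Serpinb3c and Serpinb7 stayed below 1. The chromosome 13 cluster (chr13:32842092-34002794) holds 16 clade B genes, of which Serpinb1a, Serpinb6b, Serpinb9, Serpinb9b and Serpinb6a averaged at least 1 FPKM in a group. Of the 20 clade B genes of the table outside the 10, the 2 tested, Serpinb8 and Serpinb9b, were called in no comparison. Serpinb8, an inhibitor of furin-like proteases, was at 3.01 and 4.02 FPKM in PgrKO_Diff, against 6.23 and 8.24 in F/F_Diff (log2 fold change −0.86 ± 0.34, adjusted p = 0.112, limma).

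**Figure D4:**
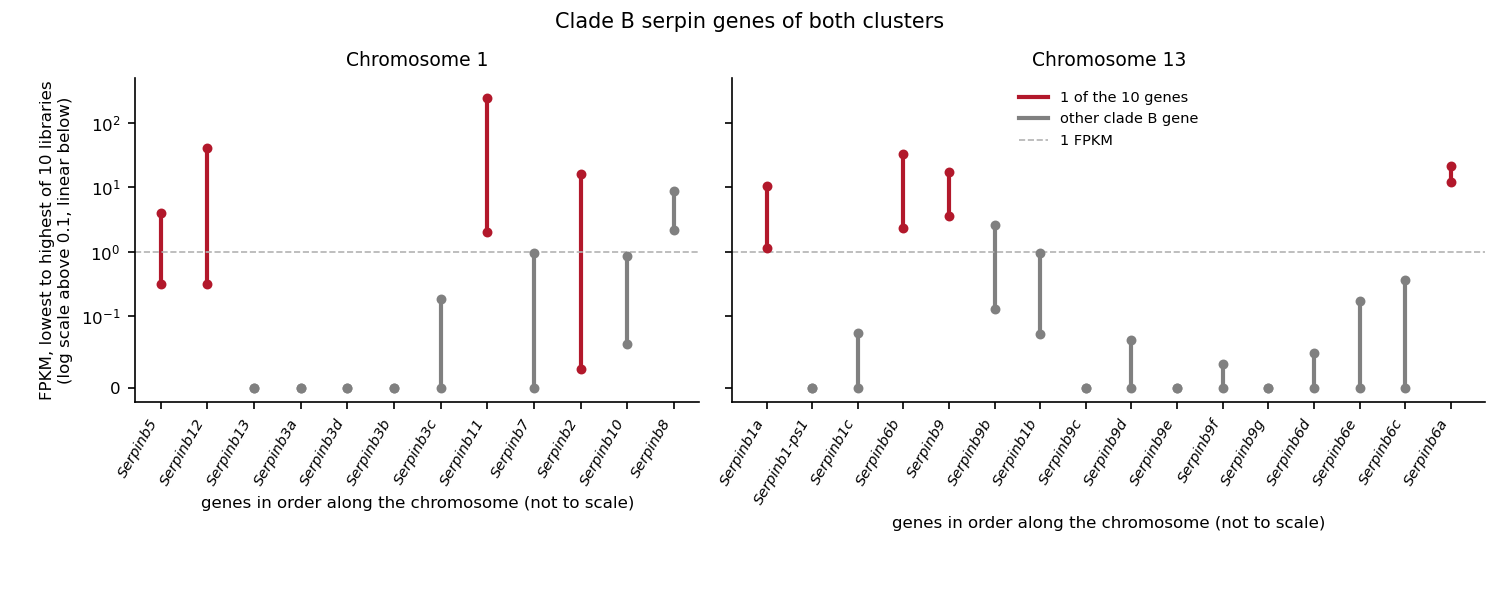
Range of FPKM over the 10 libraries (vertical axis, log above 0.1 and linear below) for each clade B gene in chromosomal order, the described genes in red and the others in grey. Serpinb8 and Serpinb9b are the others that pass 1 FPKM, and Serpinb11 spans 2.01 to 242.

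The genes named next, among the symbols searched, followed a member most closely in log2(FPKM + 1) over the 10 libraries. They are a description, with points that share treatments, depth and composition. For Serpinb12 they were Cdhr3 (r = 0.99), Spata18 and AU040972 (both 0.98). For A2ml1 they were Kcnj2, Rnf20 (both 0.98) and Txlna (0.96), and for Serpinb11 Tmco3, Slc23a1 (both 0.97) and Slc6a17 (0.96). For Slpi they were Cebpd (0.97), Tor1a (0.96) and Slc25a25 (0.95), for Serpinb2 Mmp9 (0.98), Angptl4 (0.97) and Nid2 (0.95), and for Serpinb9 Aim2, Smim15 (both 0.97) and Ddias (0.95). Cdhr3 was at 3.09 and 5.81 FPKM in PgrKO_Diff, 3.83 and 12.8 in PgrKO_Con, 18.8 in AdKO_Diff, 7.94 in AdKO_Con, 53.4 and 66.0 in F/F_Diff and 10.1 and 1.09 in F/F_Con. Among the 10, Serpinb11 and Serpinb12 went together (r = 0.81), and Slpi ran against both (−0.80 and −0.85). Serpinb1a followed Serpinb9 (0.83) and Serpinb5 (0.75).

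Lists of other protease inhibitors and of the proteases they may meet held 192 further genes, of which 75 were tested. These genes carry tests, by limma with Benjamini-Hochberg adjustment over all 15817 genes. The lists were chosen with earlier results of these data known. Their p-values and counts are therefore not those of genes picked beforehand. In F/F organoids 13 of the 75 rose and 7 fell after treatment, against 12.4% of all genes called higher and 6.89% lower. In PgrKO organoids none of them and 0% of all genes was called by limma, 1179 genes (7.45%) having an unadjusted p under 0.05, while 0 were called by voom on the recovered reads and 11 by limma when no filter on low values was used. PgrKO_Diff was higher than F/F_Diff for 17 of the 75 and lower for 14, against 11.7% and 15.4% of all genes. The response of PgrKO organoids exceeded that of F/F organoids for 2 and fell short of it for 7, against 0.499% and 3.91% of all genes. The same shares of all genes stand behind the counts per list below. F/F_Diff against F/F_Con and PgrKO_Diff against F/F_Diff share the F/F_Diff libraries, so opposite signs in them are not independent results. Between PgrKO_Con and F/F_Con, with 0.266% of all genes called higher and 0.354% lower, only Wfdc1 of the 75 was called (log2 fold change −2.12 ± 0.25, adjusted p = 0.0442), and it was lost with any 1 PgrKO or F/F library left out.

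Of 14 tested serpins of other clades, 3 rose and 2 fell in F/F_Diff. Serpina9, a clade A serpin known from human germinal center B cells, was at 3.32 and 3.72 FPKM in PgrKO_Diff, 3.19 and 9.64 in PgrKO_Con, 14.8 in AdKO_Diff, 5.92 in AdKO_Con, 64.1 and 133 in F/F_Diff and 4.08 and 1.06 in F/F_Con. It rose in F/F_Diff (4.85 ± 0.62, adjusted p = 0.0105, limma) and was lower in PgrKO_Diff than in F/F_Diff (−4.37 ± 0.62, adjusted p = 0.00604). Serpina3g, an inhibitor of cysteine cathepsins, went the other way: it was at 13.0 and 14.8 FPKM in PgrKO_Diff, 13.0 and 16.6 in PgrKO_Con, 0.802 in AdKO_Diff, 5.15 in AdKO_Con, 0.552 and 0.0879 in F/F_Diff and 9.24 and 4.52 in F/F_Con. It fell in F/F_Diff (−2.53 ± 0.33, adjusted p = 0.0106) and was higher in PgrKO_Diff than in F/F_Diff (3.52 ± 0.33, adjusted p = 0.00288).

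Of 9 tested WAP-domain genes, the family of Slpi (itself not counted), 2 rose and 1 fell in F/F_Diff. In PgrKO_Diff 2 were higher and 3 lower than in F/F_Diff. Wfdc13 was at 0.0585 and 0.238 FPKM in PgrKO_Diff, against 4.07 and 5.74 in F/F_Diff (−2.35 ± 0.19, adjusted p = 0.00288, limma), and at 0.0520 and 0 in F/F_Con. Wfdc3 was at 1.34 and 0.202 FPKM in PgrKO_Diff, against 5.32 and 5.92 in F/F_Diff (−1.98 ± 0.31, adjusted p = 0.00768). Wfdc17, a WAP protein known from activated macrophages, was at 27.2 and 115 FPKM in PgrKO_Diff, against 1.15 and 0.116 in F/F_Diff (5.20 ± 1.02, adjusted p = 0.0154), beside marker sums of leukocytes of 380 and 1673 against 189 and 75.3 FPKM, whose part was not tested. Neither A2m nor any other of the 3 tested genes of the alpha-2-macroglobulin family (A2ml1 itself not counted) was called in F/F_Diff. A2m was at 2.66 and 16.3 FPKM in PgrKO_Diff, against 0.458 and 0.184 in F/F_Diff (2.60 ± 0.66, adjusted p = 0.0344). The A2m call was lost with any of 6 libraries left out.

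Among inhibitors of other families was fetuin-B (Fetub), which blocks the egg protease ovastacin. Fetub was at 1.06 and 1.57 FPKM in PgrKO_Diff, 1.36 and 1.15 in PgrKO_Con, 5.85 in AdKO_Diff and 5.73 in AdKO_Con. In F/F_Diff it was at 5.99 and 11.3 FPKM, and in F/F_Con at 0.826 and 0.882. It rose in F/F_Diff (2.32 ± 0.28, adjusted p = 0.0101, limma) and was lower in PgrKO_Diff than in F/F_Diff (−2.01 ± 0.28, adjusted p = 0.00587). Of the 5 metalloproteinase inhibitors tested (Timp genes and Reck), Timp4 rose (2.50 ± 0.49, adjusted p = 0.021) and Timp1 fell (−2.14 ± 0.33, adjusted p = 0.0129) in F/F_Diff. In PgrKO_Diff against the same F/F_Diff libraries, Timp4 was lower (−2.44 ± 0.49, adjusted p = 0.0161) and Timp1 higher (1.23 ± 0.33, adjusted p = 0.0412). Spink2, a Kazal inhibitor, rose in F/F_Diff, 1 of 7 tested Kunitz and Kazal genes to do so. Spint1, which holds the membrane protease matriptase in check, was higher in PgrKO_Diff than in F/F_Diff (1.48 ± 0.32, adjusted p = 0.0217).

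Among the proteases, Plat, tissue plasminogen activator and a target of Serpinb2, was at 43.6 and 63.1 FPKM in PgrKO_Diff, 83.9 and 171 in PgrKO_Con, 24.5 in AdKO_Diff, 40.3 in AdKO_Con, 18.1 and 14.6 in F/F_Diff and 266 and 181 in F/F_Con. It fell in F/F_Diff (−3.67 ± 0.39, adjusted p = 0.0094, limma) and was higher in PgrKO_Diff than in F/F_Diff (1.63 ± 0.39, adjusted p = 0.0282). Of 12 tested cathepsins, Ctsh rose and Ctsc, which activates the granule serine proteases, fell in F/F_Diff, and 3 were higher in PgrKO_Diff than in F/F_Diff. Klk11, a kallikrein-related trypsin-like protease, was at 8.77 and 10.2 FPKM in PgrKO_Diff, against 30.3 and 30.2 in F/F_Diff (−1.58 ± 0.43, adjusted p = 0.0413), and at 5.94 and 1.62 in F/F_Con. It and Klk12 rose in F/F_Diff, 2 of 3 tested kallikreins. Of 19 leukocyte serine proteases, 2 were tested. Gzma, granzyme A, rose in F/F_Diff (0.92 ± 0.15, adjusted p = 0.0146) but stayed at or below 2.39 FPKM in all libraries. Prtn3, proteinase 3, which Serpinb1a inhibits, was called in no comparison.

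**Figure D5:**
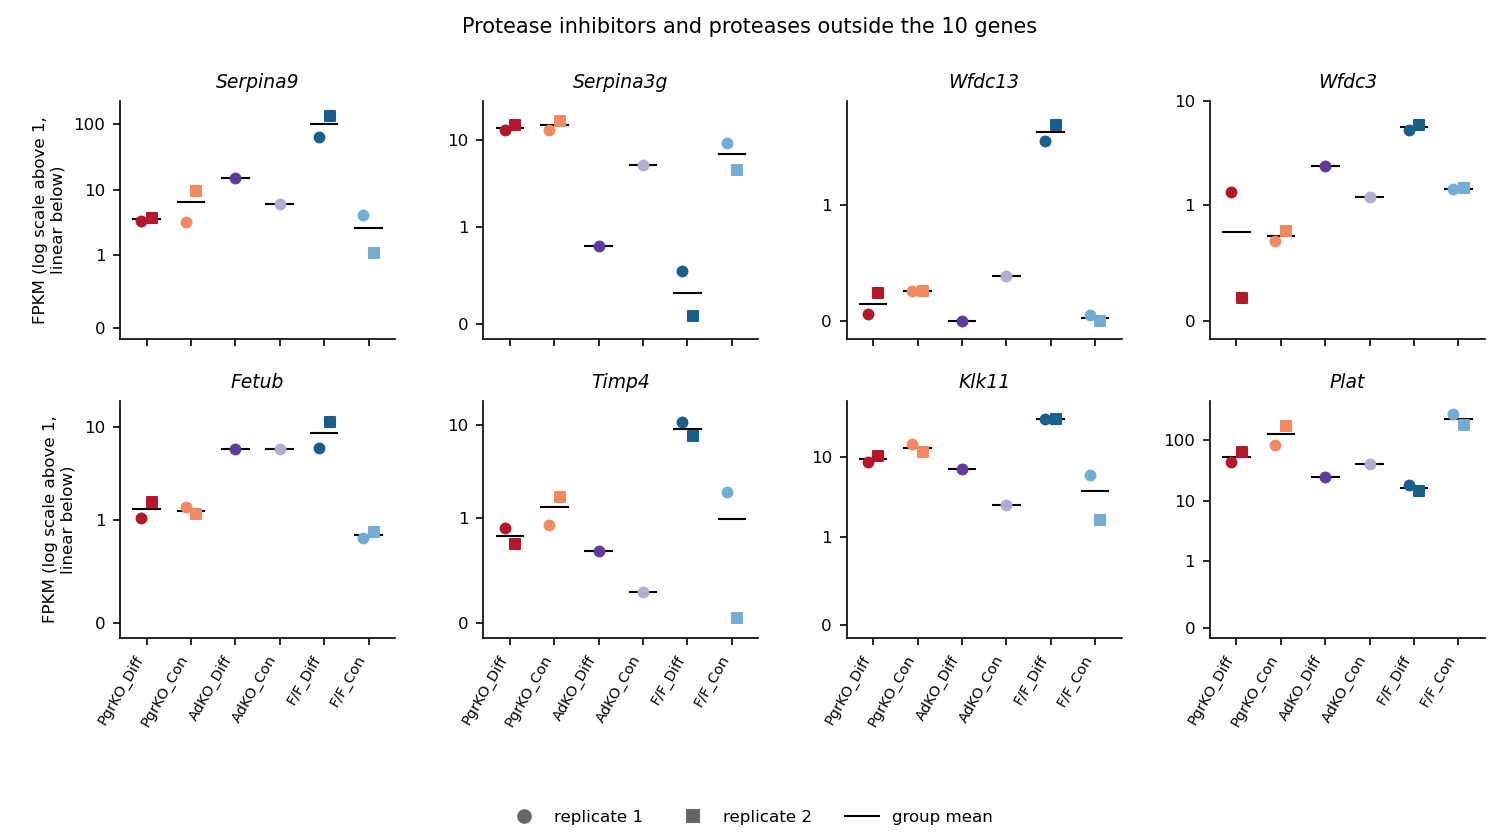
FPKM (log above 1, linear below) of 8 tested genes outside the set, with groups on the horizontal axis, a point per library and a bar at the group mean. Serpina9, Wfdc13, Wfdc3, Timp4 and Klk11 are highest in both F/F_Diff libraries, and Plat and Serpina3g are lowest there.

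Every F/F call among these genes was lost without F/F_Con replicate 2 or without F/F_Diff replicate 2, when no gene of the table was called. Between PgrKO_Diff and F/F_Diff, Serpina9, Serpina3g, Serpina11, Wfdc13, Fetub, Gzma, Klk12 and Ctsa were called with every single PgrKO or F/F library left out, with adjusted p of at most 0.045 by limma, and the other named genes lost the call at least once.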

How the data were processed

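The authors' table held FPKM per gene for 10 oviduct organoid libraries, deposited with 1 column per library. The submitters' processing notes name HISAT2, edgeR and the mm10 build, without versions. Low FPKM values were whole multiples of 1 read within 0.01 read for at least 99.99% of values, which gave back the reads per gene. Symbols were matched to GENCODE M21 gene models (54048 of 54151 symbols had 1 model), and promoters came from RefSeq.

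The 10 genes and all lists were chosen with earlier results of these data known. FPKM were analysed as log2(FPKM + 1) with limma 3.58.1 (R 4.3.3), trend in the prior variance, 1 fit of 10 libraries with a mean per group, on the 15817 genes that averaged 1 FPKM or more in any of the 6 groups. Tests were 2-sided with Benjamini-Hochberg adjustment at 0.05. The fit and its code were tested on simulated data. Named related genes were up to 3 per list with the smallest p among those called, or otherwise the 2 highest. For each of the 10 genes the 3 genes with the highest Pearson r were taken from the genes kept. Symbols that begin with mt-, or with Gm, AC, BC, RP, AL or CT and a digit, or end in Rik, were left out. Alternatives were the pseudocount, the filter, the scaling, voom on recovered reads, the libraries fitted, the replicate block, a stricter threshold and leaving out each of the 8 PgrKO and F/F libraries. All columns were mapped to a sample.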

Additional observations from a re-analysis of the deposited data

Results flagged for a closer look

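For Serpinb11 both PgrKO_Diff libraries (23.7 and 21.9 FPKM) lay below both PgrKO_Con libraries (32.9 and 32.2), by −0.50 ± 0.56 on the log2(FPKM + 1) scale. Both F/F_Diff libraries (92.9 and 242 FPKM) lay above both F/F_Con libraries (6.54 and 2.01), by 4.99 ± 0.56. The SE rests on 1 spread shared by all groups, so it is not that of the PgrKO libraries alone. The responses differed by −5.48. This difference is not tested here, because the gene was chosen with these levels known.

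For 9 genes outside the set, the test of the difference itself (PgrKO response minus F/F response, limma, Benjamini-Hochberg over 15817 genes) passed an adjusted p of 0.05. It was negative for Serpina9 (−5.42, adjusted p = 0.0428), Klk11 (−3.30, adjusted p = 0.0461), Wfdc13 (−2.65, adjusted p = 0.0428), Fetub (−2.30, adjusted p = 0.0454), Serpina11 (−1.75, adjusted p = 0.045), Klk12 (−1.37, adjusted p = 0.0457) and Gzma (−1.09, adjusted p = 0.0499). It was positive for Serpina3g (2.45, adjusted p = 0.0486) and Wfdc1 (2.01, adjusted p = 0.0453). Over all genes 4.41% passed, and the lists that hold these 9 were chosen with earlier results of these data known. Each of the 9 lost the call when any of 7 or 8 single libraries was left out, with adjusted p up to 0.157.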

How the results depend on the processing

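The differences of the 10 genes moved by less than the spread between replicates in 874 of 935 values recomputed under other settings, and by more in 61. Among the related genes 1866 of 2205 kept their side of the threshold, 334 were lost and 5 gained. With any 1 PgrKO or F/F library left out, the genes called ranged from 0 to 3055 for F/F_Diff against F/F_Con (0 without F/F_Con replicate 2 or without F/F_Diff replicate 2), from 0 to 0 for PgrKO_Diff against PgrKO_Con, from 1658 to 3775 for PgrKO_Diff against F/F_Diff, from 0 to 115 for PgrKO_Con against F/F_Con and from 0 to 458 for the difference of responses, and related genes called from 0 to 19, 0 to 0, 10 to 24, 0 to 0 and 0 to 2 in the same order. For an arm left with 1 library, that library was assumed to vary like the other groups.

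At an adjusted p of 0.01 the genes called in F/F_Diff against F/F_Con were 240 in place of 3055 (related genes 4 in place of 20), and in PgrKO_Diff against F/F_Diff 1628 in place of 4289 (10 in place of 31). At that threshold no gene was called in PgrKO_Con against F/F_Con or in the difference of responses, by limma, where 3461 and 3570 genes had an unadjusted p under 0.05. PgrKO_Diff against F/F_Diff gave 2096 genes (related 19) from only the libraries compared, 2265 (15) without both second PgrKO libraries, an alternative chosen after seeing the data, and 20 related genes with a minimum of 5 FPKM. PgrKO_Diff against PgrKO_Con gave 11 genes with no filter on low values and 0 in the main fit. PgrKO_Con against F/F_Con gave 98 genes in the main fit, 54 with a pseudocount of 0.1, 59 with no filter, 157 after quantile normalization, 0 from only the libraries compared, 34 by voom on recovered reads and 265 without both second PgrKO libraries. Its 1 related gene became 3 without both second PgrKO libraries and 0 with a pseudocount of 0.1, a minimum of 5 FPKM, only the libraries compared or voom. The difference of responses gave 697 genes in the main fit, 105 with no filter, and 0 with a pseudocount of 0.1, by voom and without both second PgrKO libraries. Its 9 related genes became 5 with a minimum of 5 FPKM or after quantile normalization, 1 with no filter and 0 with the other 3 settings. The causes of these shifts were not tested.

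Same-numbered libraries deviated together between PgrKO_Diff and PgrKO_Con (r = 0.53) but not between the other pairs of groups (−0.17 to −0.04), and the labels tie the numbers to no mouse or batch, so the numbers were not taken as pairing the libraries. A replicate block, with the AdKO libraries left out, gave 2429 genes for F/F_Diff against F/F_Con, 0 for PgrKO_Diff against PgrKO_Con, 3796 for PgrKO_Diff against F/F_Diff, 2 for PgrKO_Con against F/F_Con (0 related) and 0 for the difference of responses (0 related). With the PgrKO numbers crossed in the block, chosen after seeing the data, the counts were 3237, 0, 4518, 118 and 625 in the same order, with 0 related genes for PgrKO_Con against F/F_Con and 5 for the difference of responses.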
